A study of Mus musculus with 12 samples.

Results

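The NADPH oxidase of phagocytes and the Rac GTPases that act with it were followed here through 6 genes, Cybb, Cyba, Ncf1, Ncf4, Rac2 and Rac1. They were chosen by name from the 11494 genes of a table of normalized reads from sorted mouse blood neutrophils, and all 6 are in it. The series title concerns loss of the Y chromosome in blood-forming cells, cardiac fibrosis and death from heart failure. The table holds 12 libraries, of which 6 carry the label LOY (4, 5, 9, 10, 15 and 19) and 6 the label Control (1, 2, 6, 12, 17 and 18). LOY neutrophils came from mice given a bone marrow transplant of the genotype LOY, and Control neutrophils from mice given a transplant of the genotype Control, with the treatment tag Control in both. All 12 were blood cells positive for Ly6G and for the fluorescent protein RFP and negative for CD115, and 10000 cells were sorted per library. Strain, age, the vector or allele that carries RFP and the way the Y chromosome was lost are not given in the labels used here. Nor do they tell whether the 12 libraries are 12 different animals, and every p-value therefore describes the scatter of these libraries and no more.

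The phagocyte oxidase moves electrons from NADPH across a membrane to oxygen and so makes superoxide, which neutrophils release into phagosomes to kill microbes. Its membrane core is a heterodimer of the proteins encoded by Cybb and Cyba, and in a resting cell the regulatory proteins encoded by genes such as Ncf1 and Ncf4 wait in the cytosol. When a neutrophil is stimulated, the regulatory proteins and a Rac GTPase loaded with GTP join the core and switch it on, and inherited loss of a core or regulatory subunit causes chronic granulomatous disease. Rac proteins also steer actin assembly, and through it neutrophil movement and phagocytosis.

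Recovered reads ranged from 17097739 to 19616066 in LOY libraries and from 13743581 to 18459792 in Control libraries. Every marker on a list of 9 neutrophil genes was above 0 in all 12 libraries, and the most abundant were S100a8 (612705 ± 128099 normalized reads in LOY and 765826 ± 224829 in Control, SD, n = 6 each) and S100a9. The summed Y-linked list was lower in all 6 LOY libraries (0.162 to 86.3 per 1000000 normalized reads) than in any Control library (155 to 254), but the library labelled LOY 4 kept 39.8% of the Control mean, and results are given with and without it. Genes listed at 0 made up 6.59% to 11.6% of the table in LOY libraries, 20.5%, 21.7% and 17.3% in Control 1, 2 and 12, and 9.33% to 11.1% in the other 3 Control libraries. Of the lists of other cells, erythroid genes were highest, at 5906 to 38011 per 1000000 in LOY (the maximum in LOY 15) and 4283 to 8889 in Control, led by Hba-a1 and Hbb-bs. The monocyte and macrophage list, with 5 of its 12 genes in the table and led by Csf1r and Cd68, summed to 996 to 1468 in LOY and 773 to 1494 in Control. The sums were lower for B cells (Ighm and Cd79a, 7 of 7 genes in the table, 106 to 484 in LOY and 227 to 419 in Control) and eosinophils (Siglecf and Ccr3, 3 of 8 genes, 57.4 to 108 in LOY and 44.5 to 93.1 in Control). Platelet genes (Pf4 and Ppbp, 5 of 7) summed to 27.4 to 81.5 in LOY and 30.2 to 88.2 in Control, and T and NK cell genes (Cd3d and Cd3g, 4 of 11) to 5.72 to 15.5 in LOY and 7.01 to 28.3 in Control. The genes most often at 0 on the B cell, T and NK cell, and monocyte and macrophage lists were Pax5 (6 of 12 libraries), Nkg7 (9) and F13a1 (10). On the same lists Cd79a was at 0 in 1 library, and Ighm, Cd3d, Csf1r and Cd68 were above 0 in all 12. The part of these other cells in the values below was not tested.

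For none of the 6 genes was a difference between LOY and Control neutrophils found that exceeded the spread between libraries. With limma on log2(value + 1), 0 of 6 passed an adjusted p of 0.05, beside 2 of 9742 genes tested (0.0205%). At an unadjusted p under 0.05 there were again 0 of 6, beside 588 genes (6.04%), and the 2 groups overlapped for all 6 members, whereas 28 genes (0.287%) had groups that did not overlap. On the recovered reads edgeR also called 0 of 6 (0 of 9742 genes, 0%, with 286 at an unadjusted p under 0.05) and DESeq2 0 of 6 (54 of 10963 genes, 0.493%). All 6 log2 fold changes of LOY over Control were below 0, with a median of −0.11, although Ncf1 was above 0 under TMM normalization, edgeR and DESeq2, and Ncf1, Ncf4 and Rac2 with the percentage of zero genes as a covariate. The median of all genes tested was 0.136, with 5935 above 0 and 3807 below, while for 3582 genes averaging at least 500 normalized reads, as all members but Rac1 did, it was 0.0015. Values are for a sorted population, in which fewer cells of a type and less RNA per cell cannot be told apart.

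**Figure D1:**
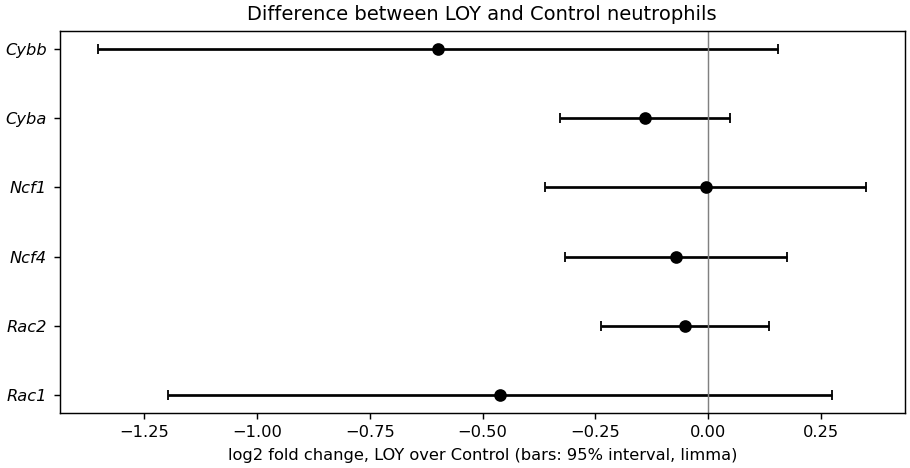
Log2 fold change of LOY over Control for the 6 members (x axis) with its 95% interval from limma over 6 and 6 libraries. All 6 intervals include 0, and those of Cybb and Rac1 are the widest.

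In neutrophils of both groups the 6 transcripts were present at very unequal levels per exon length. Cyba led with a mean of 22965 normalized reads per kilobase of exon over the 12 libraries, rank 32 of the 11472 genes with an annotated length, and Rac2 followed at 18017 (rank 46). Ncf4, at 5055 (rank 177), and Ncf1, at 4952 (rank 182), lay close together. Cybb stood at 510 (rank 1349) and Rac1 at 107 (rank 3906), beside a median of 48.8 for all genes.

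Each gene stood above the next in this order in 12 of 12 libraries, except Ncf4, which was above Ncf1 in 8 of 12. For the 4 ordered pairs a sign-flip permutation test of the log2 difference within a library gave an adjusted p of 0.00061 over 5 pairs, two-sided. The order was taken from these same libraries. With all 12 on 1 side, the unadjusted p of this permutation test, 0.000488, is the smallest it can give. For Ncf4 and Ncf1 it gave 0.551. The step from Cyba to Rac2 was 1.27-fold, that from Rac2 to Ncf4 3.58-fold, that from Ncf1 to Cybb 10.6-fold and that from Cybb to Rac1 4.69-fold (geometric means). Levels per length depend on which bases make up the length, which the permutation test does not measure. By the longest annotated transcript the step from Cyba to Rac2 was 1.74-fold. Of the exon bases of Rac1, 2309 of 4496 (51.4%) also belong to Daglb on the opposite strand, and 408 of 3663 for Ncf1 belong to Gtf2ird2. Since the kit used does not record strand, the 2 genes of such an overlap cannot be told apart there. Another length, chosen after seeing the data, held only bases of no other gene. The reads of each gene stayed the same, and none were counted again over these bases. By this length Ncf1 stood above Ncf4 (10 of 12 libraries, permutation test, adjusted p = 0.111) and Cybb above Rac1 in 11 of 12, by 2.28-fold.

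**Figure D2:**
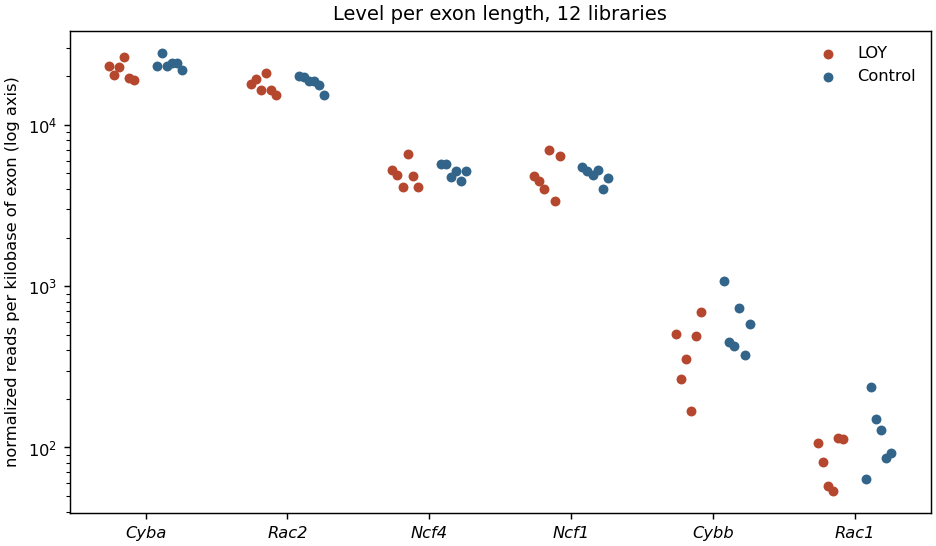
Normalized reads per kilobase of exon (y axis, log scale) for each member in the 6 LOY (left) and 6 Control (right) libraries; each point is 1 library. Cyba and Rac2 lie highest, at 15253 or more, Ncf4 and Ncf1 between 3354 and 7017, and Cybb and Rac1 lowest.

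Cybb, on chromosome X (9435252 to 9487771, minus strand, GRCm38), encodes the catalytic subunit that carries the electrons. It had from 977 to 3997 normalized reads in LOY libraries, with a median of 2463, against 2189 to 6232 in Control libraries, with a median of 2998. The 3 LOY libraries 10, 5 and 9 (977, 1549.8 and 2059) lay below every Control library, while the 3 highest LOY libraries were inside the Control range, and Control 1 (6232) and 12 (4260) stood above all LOY libraries. The means were 2399 ± 1089 in LOY and 3525 ± 1524 in Control (SD, n = 6 each), a log2 fold change of −0.60 ± 0.35 (SE; limma adjusted p = 0.823). Its 95% interval ran from 0.392-fold to 1.11-fold. Leaving out LOY 10 moved the estimate to −0.37. Leaving out Control 1, 2 and 12, which had the highest percentages of zero genes, moved it to −0.28.

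Cyba, on chromosome 8 (122424776 to 122432930, minus strand), encodes the partner that stabilises the catalytic subunit and anchors the cytosolic proteins. Its values ran from 19713 to 27380 normalized reads in LOY (median 22421) and from 22736 to 28890 in Control (median 24545). LOY 5, 15 and 19 lay below all Control libraries and LOY 10 above all of them but Control 2. The difference of −0.14 ± 0.087 on the log2 scale (limma adjusted p = 0.823) was small beside that of Cybb and more tightly bounded, with a 95% interval of 0.796-fold to 1.03-fold. The estimate was −0.08 without Control 1, 2 and 12 and −0.05 with the percentage of zero genes as a covariate.

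The ratio of Cybb to Cyba, per exon length, was 0.0197 ± 0.0105 in LOY and 0.0256 ± 0.0118 in Control. A ratio of genes within a library does not depend on how that library was scaled. Whether the ratio of Cybb to Cyba followed the difference between long and short genes given further below was not tested. The lowest value of the ratio was in LOY 10 (0.00638) and the highest in Control 1 (0.0464). The log2 ratio differed by −0.46 between LOY and Control, by less than the spread between libraries (exact permutation test, two-sided p = 0.320, adjusted p = 0.481 over 3 ratios). Without LOY 10 the difference was −0.17, and without LOY 4 it was −0.53.

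Ncf1, on chromosome 5 (134220053 to 134229625, minus strand), encodes the organiser protein whose phosphorylation starts assembly. Normalized reads ranged from 12286 to 25703 in LOY, with a median of 16967, and from 14585 to 19923 in Control, with a median of 18366. LOY libraries lay on both sides of the Control range, with LOY 10 (25703) and 19 (23449) above it and LOY 15 (12286) below it. The SD was accordingly 5183 around a mean of 18355 in LOY and 1911 around a mean of 17926 in Control. The log2 fold change was −0.01 ± 0.16 (limma adjusted p = 0.995), the mean of LOY being higher and the mean of its log2 values lower. Its sign was above 0 with edgeR (0.05), with DESeq2 (0.03) and with TMM normalization (0.01), so no direction can be given.

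Ncf4, on chromosome 15 (78244801 to 78262580, plus strand), encodes a regulatory subunit that binds phosphatidylinositol 3-phosphate on the phagosome. The lowest, median and highest values were 8311, 9782 and 13225 normalized reads in LOY, and 9079, 10426 and 11505 in Control. LOY 9 and 19 lay below the Control range and LOY 10 above it. The means of 10005 ± 1813 in LOY and 10419 ± 979 in Control gave a log2 fold change of −0.07 ± 0.11 (limma adjusted p = 0.910). With single libraries left out it ranged from −0.16 (without LOY 10) to −0.02 (without LOY 9), and without Control 1, 2 and 12 its sign was reversed (0.03).

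Ncf1 and Ncf4 kept a ratio near 1 per exon length, at 1.02 ± 0.287 in LOY and 0.949 ± 0.0578 in Control. In Control all 6 values lay between 0.886 and 1.02, whereas in LOY the ratio was 0.696 in LOY 15 and 1.55 in LOY 19. The difference of the log2 ratios was 0.07 (exact permutation test, two-sided p = 0.680, adjusted p = 0.680). Without LOY 19 it was −0.06, and without LOY 4 0.09. The difference in spread between the groups was not tested.

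**Figure D3:**
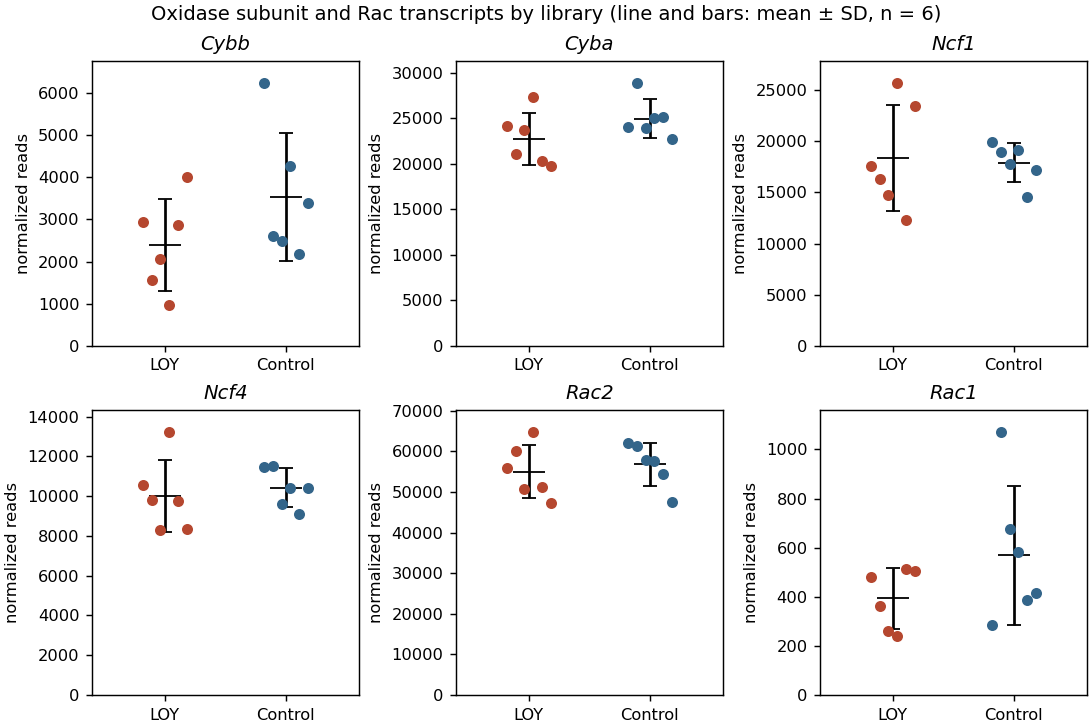
Normalized reads (y axis, from 0) of the 6 members in LOY (left) and Control (right) libraries. Each point is 1 library, with the mean and SD of 6 in black; the groups overlap in all 6 panels, and LOY 10 is the lowest point for Cybb and Rac1 and the highest for Ncf1, Ncf4 and Rac2.

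Rac2 and Rac1 encode closely related small GTPases, of which Rac2 is largely restricted to blood cells and Rac1 is made in most tissues. Across the 579 coding bases of Rac2 and of the Rac1 transcript of equal coding length (GENCODE vM21, GRCm38), 446 (77.0%) are identical. Another Rac1 transcript, with 636 coding bases, is annotated. Between either Rac1 transcript and the Rac2 transcript, taken whole with their untranslated parts, the longest identical run has 29 bases. A read longer than that run, placed without error in the coding part, meets at least 1 base at which the genes differ.

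Rac2, on chromosome 15 (78559167 to 78572783, minus strand), had 47329 to 64764 normalized reads in LOY, with a median of 53500, and 47490 to 62011 in Control, with a median of 57814. LOY 10 (64764) was the highest and LOY 19 (47329) the lowest of the 12 libraries, and the other 4 LOY libraries lay inside the Control range. Its log2 fold change was −0.05 ± 0.086 (limma adjusted p = 0.916), with a 95% interval of 0.848-fold to 1.10-fold. With single libraries left out it ranged from −0.10 (without Control 18) to −0.01 (without LOY 19), and without Control 1, 2 and 12 the sign was reversed (0.04).

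Rac1, on chromosome 5 (143503634 to 143528036, minus strand), was the least abundant member. It had 241 to 513 normalized reads in LOY (median 423) and 286 to 1071 in Control (median 499). LOY 9 and 10 lay below every Control library, and Control 2, 6 and 12 above every LOY library. The means of 394 ± 123 in LOY and 570 ± 283 in Control (SD, n = 6 each) gave a log2 fold change of −0.46 ± 0.34 (limma adjusted p = 0.839). The 95% interval ran from 0.436-fold to 1.21-fold, which includes a fall by more than 2-fold and no change. Leaving out Control 2, the highest library, gave the estimate nearest 0 among single libraries, −0.25.

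In every library Rac2 exceeded Rac1 by far. Per exon length the ratio was 227 ± 98.0 in LOY and 172 ± 80.4 in Control, and Rac1 made up 0.506% ± 0.192 of the sum of both in LOY and 0.681% ± 0.300 in Control. The ratio ran from 136 (LOY 19) to 389 (LOY 10) in LOY and from 83.0 (Control 2) to 314 (Control 1) in Control. With the same reads divided by the bases of no other gene, the mean ratios were 110.2 in LOY and 83.9 in Control. The log2 ratio was higher in LOY by 0.41, a difference within the spread between libraries (exact permutation test, two-sided p = 0.275, adjusted p = 0.481). It was 0.23 without Control 2, 0.61 without Control 1 and 0.48 without LOY 4.

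**Figure D4:**
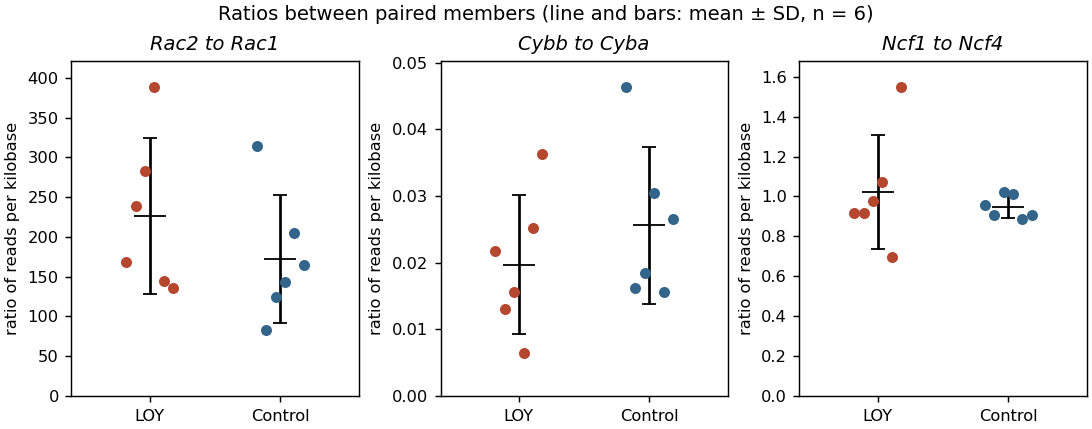
Ratios of normalized reads per kilobase of exon (y axes, from 0) between Rac2 and Rac1, Cybb and Cyba, and Ncf1 and Ncf4, in LOY (left) and Control (right). Points are libraries, with the mean and SD of 6 in black; the groups overlap in all 3 panels.

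With the library labelled LOY 4 left out, all 6 log2 fold changes kept their sign and 0 passed. Cybb was then at −0.69, Rac1 at −0.53, Cyba at −0.16, Ncf4 at −0.09, Rac2 at −0.06 and Ncf1 at −0.00 (limma adjusted p from 0.875 to 0.998). In the authors' deposited table the log2 fold changes of LOY over Control were −0.56 for Cybb, −0.13 for Cyba, 0.03 for Ncf1, −0.06 for Ncf4, −0.05 for Rac2 and −0.53 for Rac1, each with an adjusted p of 0.999997. These are not a second result, since DESeq2 on the recovered reads gave the authors' deposited log2 fold change within 0.001 for all 11494 genes.

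How far a gene varied between libraries of 1 group differed from member to member. The residual SD of Cybb was 0.66 on the log2 scale, larger than in 92.4% of the 1124 genes within 2-fold of its level, whose median was 0.35. Ncf1, at 0.31, was more variable than 86.7% of the 248 genes near its level (median 0.21). Rac1 had an SD of 0.59, but genes at its level had a median of 0.76. The SDs of Cyba (0.15), Rac2 (0.16) and Ncf4 (0.20) were below the median of genes near their level.

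LOY 10 stood at an end of the 6 LOY libraries for every member. It was the highest for Cyba, Ncf1, Ncf4 and Rac2 and the lowest for Cybb and Rac1, and it also had the highest summed neutrophil list among LOY libraries (116649 per 1000000, against a LOY median of 92311). Among Control libraries, Control 2 was the highest for Cyba, Ncf4 and Rac1 and had the highest neutrophil list (134067, against a Control median of 108371). These are also the 2 libraries with the lowest signal from long genes relative to short genes. Each gene's log2 value was taken relative to its mean over libraries. The median over 1354 genes with a longest transcript of 4000 bases or more, minus that over 191 genes of 1000 bases or fewer, with the 6 members in neither set, was −0.27 in LOY 10 and −0.28 in Control 2, against 0.01 to 0.20 in the other 10 libraries. The longest annotated transcript has 744 bases for Cyba, the shortest of the members, and 4752 for Cybb, the longest.

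Across the log2 values of the 12 libraries, Cyba moved against this difference between long and short genes, a measure chosen after seeing the data. A short gene tends to run against it by construction, and 150 of the 191 short genes had an r below 0, with a median of −0.40. Pearson's r of Cyba was −0.90, lower than that of any of the 191, and Spearman's rho −0.85 (permutation tests, adjusted p = 0.00018 and 0.00618 over 6 members). These tests start from no relation, so their p-values allow neither for this tendency nor for the choice of the measure. The r of Cyba was −0.93 within LOY and −0.89 within Control, and −0.89 without the 2 libraries farthest from the median of the difference. Rac2 had an r of −0.69 and a rho of −0.73 (permutation tests, adjusted p = 0.0243 and 0.0256), and without the 2 farthest libraries its r was −0.53. Within LOY the r of Rac2 was −0.72 and within Control −0.60, and that of Ncf4 was −0.83 within LOY and −0.58 within Control. For Ncf4 r was −0.75 and rho −0.60 (permutation tests, adjusted p = 0.0132 and 0.0877), and r was −0.47 without the 2 farthest. The relations of Rac2 and Ncf4 thus rest in part on those libraries. Of 3575 genes averaging at least 500 normalized reads, 48.9% had an r below 0. Rac2 and Ncf4 were not compared with genes of their own length. Ncf1 (r −0.52, rho −0.47), Cybb (0.35 and 0.13) and Rac1 (−0.17 and −0.14) did not pass (permutation tests, adjusted p from 0.126 to 0.682). For Rac1 the r within LOY (0.69) and within Control (−0.80) had opposite signs. Those of Cybb were 0.74 and 0.18, and those of Ncf1 −0.59 and −0.45. Values of r within a group rest on 6 libraries and were not tested. With the difference added to the limma fit, a choice made after seeing the data, the LOY estimates were −0.07 for Cyba, −0.76 for Cybb, 0.07 for Ncf1, −0.00 for Ncf4, −0.00 for Rac2 and −0.44 for Rac1, and 0 of 6 passed (limma adjusted p from 0.948 to 0.999). The source of the difference between libraries was not tested.

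**Figure D5:**
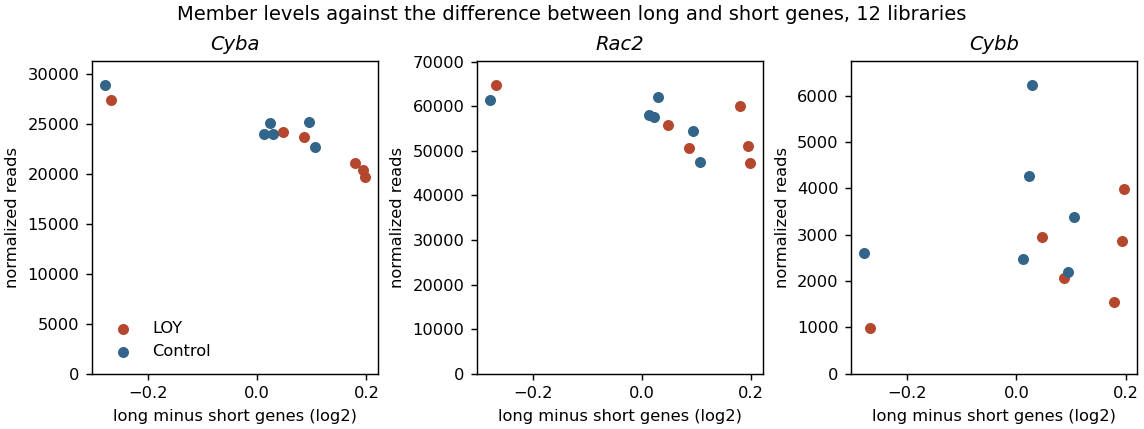
Normalized reads of Cyba, Rac2 and Cybb (y axes, from 0) against the log2 difference between long and short genes (x axes); each point is 1 LOY or Control library. LOY 10 and Control 2 lie alone at the left, and Cyba is lowest in the libraries farthest to the right.

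Among the 15 pairs of members, 0 were correlated across libraries past an adjusted p of 0.05, and 3 were at an unadjusted p under 0.05 (permutation tests on log2 values). These were Ncf4 with Rac2 (r 0.73, rho 0.71, permutation adjusted p = 0.0985 and 0.173), Cyba with Rac2 (0.65 and 0.63) and Cyba with Ncf4 (0.63 and 0.58). Within LOY their r was 0.88, 0.70 and 0.72, and within Control 0.43, 0.59 and 0.33. Without the 2 libraries farthest from the median of Ncf4, r of Ncf4 with Rac2 was 0.61. Without the 2 farthest from the median of Cyba, r was 0.47 for Cyba with Rac2 and 0.44 for Cyba with Ncf4. After removal of the difference between long and short genes r was 0.45, 0.11 and −0.19 for these pairs, in the order first given. For the core subunits Cybb and Cyba r was −0.26 and rho −0.18, and for the Rac genes r was −0.03 and rho −0.13.

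Genes with the pattern most like each member across the 12 libraries were taken from 3577 others with a mean of 500 or more, by Spearman's rho on deviations from the group means, as a description. For Cyba they were Vamp8 (0.895) and Dnttip2 (0.881), for Cybb Zmynd11 (0.853) and F630028O10Rik (0.832), and for Ncf1 Cdc42ep2 (0.902) and Ccl6 (0.860). Ncf4 was closest to the ribosomal protein gene Rps9 (0.930) and Gm5483 (0.902), Rac1 to the RNA polymerase III subunit gene Polr3c (0.867) and Fosl2 (0.839), and Rac2 to Paxx (0.874) and the actin capping gene Capzb (0.860). None of these 12 was a member of the pathway lists.

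The other genes of the pathway were counted over 6 lists, with 70 of 94 genes in the table and 69 tested. With limma 0 were higher and 0 lower in LOY, 2 had an unadjusted p under 0.05, beside 6.04% of all genes tested, and edgeR called 0. Of the 69 estimates 35 were positive and 34 negative, with a median of 0.01, beside 0.136 for all genes tested. Of 7 other oxidase genes, 4 were positive and 3 negative (median 0.09), with Rap1a, a small GTPase that copurifies with the core, at −0.19 ± 0.23 (SE) and Rap1b at −0.31 ± 0.30 (0.02 with the percentage of zero genes as a covariate). For the 14 genes on the list of exchange factors, which load Rac with GTP, the split was 7 and 7 with a median of 0.00. The list includes Elmo1 and Elmo2, which encode partners of Dock exchange factors. Dock5 stood at 1280 ± 264 normalized reads in LOY and 1833 ± 880 in Control (−0.42 ± 0.27), while Elmo2 (1.49 ± 1.08) and Sos1 (1.59 ± 1.16) had Control libraries near 0 (the lowest at 2.56 normalized reads for Elmo2). With the percentage of zero genes as a covariate Dock5 was at 0.04, Elmo2 at 0.10 and Sos1 at 0.41, and without Control 1, 2 and 12 Sos1 was at −0.08.

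Of 10 GTPase activating proteins and dissociation inhibitors, which return Rac to the inactive state or hold it there, 4 were positive and 6 negative (median −0.12). Arhgap17 was at −0.44 ± 0.27, Arhgap24 at 0.45 ± 0.31 and Chn2, with Control libraries at 0, at 1.73 ± 1.40 (0.26 with edgeR). With the percentage of zero genes as a covariate Arhgap17 was at −0.07, Arhgap24 at 0.41 and Chn2 at 2.08. Among 23 kinases and lipases upstream of assembly 13 were positive and 10 negative (median 0.02). Prkcb, a protein kinase C that phosphorylates the Ncf1 product, had 1279 ± 298 normalized reads in LOY and 957 ± 340 in Control (0.46 ± 0.25, limma adjusted p = 0.810). Its estimate was 0.66 with the percentage of zero genes as a covariate. The kinase gene Mapk3 had an estimate of −0.31 ± 0.21, which was 0.16 with the percentage of zero genes in each library as a covariate and 0.04 without Control 1, 2 and 12.

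The 8 tested genes of the WAVE complex and other Rac effectors, through which Rac drives actin assembly, held both genes with an unadjusted p under 0.05. Cyfip1, the WAVE subunit that binds Rac, had 633 to 1078 normalized reads in LOY and 930.3 to 2054 in Control, with a log2 fold change of −0.81 ± 0.23 (limma adjusted p = 0.554). Its estimate was −0.42 without Control 1, 2 and 12 and −0.37 with the percentage of zero genes as a covariate. Iqgap1, a scaffold that binds Rac loaded with GTP, had 22253 to 33336 normalized reads in LOY and 20296 to 30056 in Control (0.26 ± 0.11, limma adjusted p = 0.810), and Brk1 was at 0.10 ± 0.13. The Iqgap1 estimate was 0.32 with the percentage of zero genes as a covariate. The list had 5 positive and 3 negative estimates, with a median of 0.06.

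Of 8 transcription factors of oxidase genes 7 were tested, 2 with positive and 5 with negative estimates (median −0.24). Irf1 stood at 0.25 ± 0.19 (0.06 without Control 1, 2 and 12), Cebpb at −0.83 ± 0.46 (136 ± 29.8 normalized reads in LOY and 298 ± 258 in Control) and Runx1 at −0.89 ± 0.64. With the percentage of zero genes as a covariate the Cebpb estimate was −0.07 and the Runx1 estimate −0.94. Irf8, named after its values were seen, was below the filter of the limma test, at 0 to 228 normalized reads in LOY and at 0 in all 6 Control libraries. It was the single gene of the 6 lists that DESeq2 called.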

How the data were processed

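Per the labels' protocols, cDNA from sorted cells was amplified with SMART-Seq v4 and made into Nextera XT libraries. Named in the submitters' processing notes are STAR 2.5.2b, Trimmomatic 0.36, bcl2fastq 2.17, Subread 1.5.2 with featureCounts, and the builds mm10 and GRCm38. The authors deposited normalized signal values (genes by libraries) and, per the file headers, their own log2 fold changes and p-values, made with a tool not given in the sources used here. The signal consisted of whole multiples of 1 step per library (100% of values, tolerance 0.02 reads), so reads were recovered by division; they total 13743581 to 19616066 per library. Genes with a mean below 8.63 normalized reads are not listed.

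The 9742 genes that reached 10 normalized reads in 6 libraries or more were tested with limma 3.58.1 in R 4.3.3 (trended, robust) on log2(value + 1), with Benjamini-Hochberg adjustment over all of them; this scale understates changes of low genes, and can exceed edgeR's estimates where libraries of 1 group lie near 0. The script was tested on simulated counts. Ratios and levels were tested with exact permutation tests over 924 splits (smallest possible p 0.00216) or all sign flips, and correlations with 100000 resamples (scipy 1.17.1). Alternatives were edgeR 4.0.16, DESeq2 1.42.0, TMM and quantile normalization, pseudocounts of 0.5 and 5, no filter, the percentage of zero genes per library as a covariate, a mean of at least 50, and libraries left out. Chosen after seeing the data were the difference between long and short genes as a covariate, exon bases of no other gene as length, and the alternatives for the list count.

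Exon lengths come from GENCODE vM21 (GRCm38), which held 11472 of the identifiers. The genes, the lists and the tests were chosen with earlier results of these data known. Named genes are the members, up to 3 genes with the smallest p per pathway list, the 2 most abundant genes per other cell type and the 2 most like genes per member; of the Y-linked genes only the sum is given, and some genes under this rule are not reported here.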

Additional observations from a re-analysis of the deposited data

How the results depend on the processing

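Each member's estimate was recomputed under 23 alternatives, and 0 of 6 members passed in any of them. Cyba (−0.20 to −0.05), Cybb (−0.77 to −0.28) and Rac1 (−0.63 to −0.25) stayed below 0 throughout. Ncf1 was above 0 with TMM normalization (0.0095), the percentage of zero genes as a covariate (0.18), the difference between long and short genes as a covariate (0.071), edgeR (0.050), DESeq2 (0.034) and without Control 1, 2 and 12 together (0.11), and ranged from −0.11 to 0.10 with single libraries left out. With the percentage of zero genes as a covariate Ncf4 was at 0.062 and Rac2 at 0.050, and without Control 1, 2 and 12 Ncf4 was at 0.029 and Rac2 at 0.040; the cause was not tested. The difference in the log2 ratio of Ncf1 to Ncf4 ranged from −0.063 to 0.17 with single libraries left out and was below 0 without LOY 19.

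The count of genes called over the whole table was 2 with limma and 0 with a mean of 50 or more, quantile normalization, either covariate, edgeR or without Control 1, 2 and 12, and 54 with DESeq2. With single libraries left out, over the same 9742 genes and with the filter not applied again, it ranged from 0 to 17, leaving out Control 6 giving 17, Control 18 giving 7, Control 12 giving 5, LOY 4 giving 3, Control 1 or Control 17 giving 1, and Control 2 or any of the other 5 LOY libraries giving 0. The count over the pathway lists was 0, except 1 with DESeq2. In the order of levels per length, 4 of 5 neighbouring pairs passed under all 3 alternatives. The order was taken each time from the libraries tested, so this count does not show that the order held. By exon bases of no other gene Ncf1 came before Ncf4, and some of the pairs tested were therefore different. No paired analysis was possible because the 2 groups share no replicate number. Rac1 had as few as 241 normalized reads in a library, and intervals cover the spread between these libraries only.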
